A study of Mus musculus with 9 samples.

Results

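The hemoglobin genes and Alas2, the red cell form of the enzyme that starts heme synthesis, were followed in mouse epididymal white adipose tissue (WAT) across 3 diets. All probes whose gene symbol was Alas2 or began with Hba- or Hbb- were taken, which gave 13 of the 45281 probes on the array, for 5 genes. Alas2, Hba-a1 and Hbb-b2 had 1 probe each, Hbb-bs had 6 and Hbb-bt had 4. These genes were chosen with their values on these arrays known, so their levels and differences are given as a description and were not tested. The mice were males of an inbred strain that the labels spell C56BL/6J, 4 weeks old on arrival and then fed for 16 weeks. The normal diet (ND) group received a purified control diet. The high-fat diet (HFD) group received a diet that the labels give as 20% fat and 1% cholesterol, and the luteolin (LU) group received the same HFD with 0.005% (w/w) luteolin, a plant flavone. Each group had 3 arrays, each loaded with RNA that the methods describe as pooled, from a number of mice that the sources used here do not give. The spread between arrays is therefore the spread between these RNA samples and not between mice. The tissue was the whole fat depot with its vessels, rinsed in saline before freezing.

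Hemoglobin, the oxygen carrier of red cells, is a tetramer of alpha and beta globin chains, each of which holds a heme group. Hba-a1 encodes the adult alpha chain together with its near-identical copy Hba-a2. Hbb-bs and Hbb-bt encode the adult beta chains of the haplotype that C57BL mice carry, and Hbb-b2 is the name of an adult beta chain gene of a different mouse haplotype. Alas2 joins glycine to succinyl-CoA in the mitochondria of erythroid cells, the rate-limiting step of heme synthesis there. Red cells lose their nucleus, and young red cells in the blood (reticulocytes) still carry globin and Alas2 messages, so these messages enter the RNA of any tissue taken with blood in its vessels. White adipocytes themselves carry heme in mitochondrial proteins and make it with the ubiquitous enzyme Alas1, which had no named probe here.

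Erythroid genes are classically read by GATA1, which binds GATA motifs, and by KLF1, which binds CACCC motifs, and globin promoters carry a CCAAT box. The 250 bases before the start of each gene are shown here for the 4 genes with a RefSeq window, to show which of these motifs they share. They are taken from RefSeq on GRCm38.p6 and read 5′ to 3′ on the strand of the gene, and capitals mark every GATAA (reverse complement TTATC), every CACCC (reverse complement GGGTG) and every CCAAT (reverse complement ATTGG). The windows are chrX:150547167-150547416 (plus strand) for Alas2, chr11:32283422-32283671 (plus strand) for Hba-a1, chr7:103827929-103828178 (minus strand) for Hbb-bs and chr7:103813924-103814173 (minus strand) for Hbb-bt.
Alas2: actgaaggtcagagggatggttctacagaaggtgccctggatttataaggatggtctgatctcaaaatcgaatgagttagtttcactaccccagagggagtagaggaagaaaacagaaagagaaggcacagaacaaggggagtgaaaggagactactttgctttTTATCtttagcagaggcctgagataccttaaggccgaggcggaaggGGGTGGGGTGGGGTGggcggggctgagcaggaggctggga
Hba-a1: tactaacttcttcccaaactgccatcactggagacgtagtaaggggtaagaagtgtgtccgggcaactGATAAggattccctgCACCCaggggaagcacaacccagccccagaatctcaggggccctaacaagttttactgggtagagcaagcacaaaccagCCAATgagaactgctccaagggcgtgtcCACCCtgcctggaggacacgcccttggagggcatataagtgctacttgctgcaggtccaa
Hbb-bs: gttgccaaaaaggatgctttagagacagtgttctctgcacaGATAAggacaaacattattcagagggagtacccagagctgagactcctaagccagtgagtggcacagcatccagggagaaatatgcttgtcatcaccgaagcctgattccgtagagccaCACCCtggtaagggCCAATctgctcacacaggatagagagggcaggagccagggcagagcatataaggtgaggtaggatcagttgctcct
Hbb-bt: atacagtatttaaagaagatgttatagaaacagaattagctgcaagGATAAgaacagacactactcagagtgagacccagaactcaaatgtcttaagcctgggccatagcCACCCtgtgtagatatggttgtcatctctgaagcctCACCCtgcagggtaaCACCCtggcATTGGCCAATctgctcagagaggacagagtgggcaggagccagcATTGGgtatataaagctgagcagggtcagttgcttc
Each of the 4 windows held 1 GATAA, whereas 22.6% of 32851 mouse promoter windows of the same length held at least 1. The GATAA lay 86 bases before the start of Alas2, 182 before Hba-a1, 209 before Hbb-bs and 204 before Hbb-bt. CACCC stood 3 times in the Alas2 window, in a row 40, 35 and 30 bases before the start, 2 times in Hba-a1, 1 time in Hbb-bs and 3 times in Hbb-bt, against at least 1 in 52% of all windows. CCAAT was in the 3 globin windows and not in that of Alas2, and 33.8% of all windows held it. In Hbb-bt the reverse complement ATTGG stands next to a CCAAT, 80 and 75 bases before the start, with no base shared. These are matches of letters and not sites of binding. Hbb-b2 was not matched to a promoter window.

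The arrays were alike in depth of detection, with 42.2% to 43.8% of the probes above background on each. The signals were quantile-normalized and are given on the log2 scale, where a difference of 1 is a doubling, and the lowest signal that counted as above background was 7.79 to 7.83. Probes that 3 or more arrays detected (p-value of detection under 0.05) numbered 20558 and entered all comparisons. Adipoq, the adiponectin message that defines adipocytes, was near the top of the scale in all groups, with means of 15.89, 15.76 and 15.86 on ND, HFD and LU. All 13 hemoglobin and Alas2 probes passed, 12 of them detected on all 9 arrays. Hbb-b2 was detected on 4 arrays, the 3 ND arrays and HFD replicate 2, and so passed only through the group in which it was high.

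Hemoglobin messages were among the brightest of the tissue on ND and were lower on HFD and lower again on LU. Hba-a1, the alpha chain, read 15.97, 15.99 and 15.96 on ND (log2 signal, replicates 1 to 3), 15.14, 15.87 and 15.71 on HFD and 14.68, 14.67 and 14.59 on LU. Every HFD array lay below every ND array, and every LU array below every HFD array. The group means were 15.97 ± 0.02, 15.57 ± 0.38 and 14.65 ± 0.05 (SD, n = 3), so that HFD was 1.32-fold lower than ND as measured, LU was 1.90-fold lower than HFD and LU was 2.51-fold lower than ND. The ND arrays read Hba-a1 near the top of their scale, where a higher level has little room to show. The folds against ND may therefore be too small, which was not tested. Probes of near-identical copies can read each other's messages, so the Hba-a1 probe may also report Hba-a2, and the Hbb-bs and Hbb-bt probes may report each other. Fewer red cells in the tissue and less of a message per cell cannot be told apart in RNA of whole tissue.

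**Figure D1:**
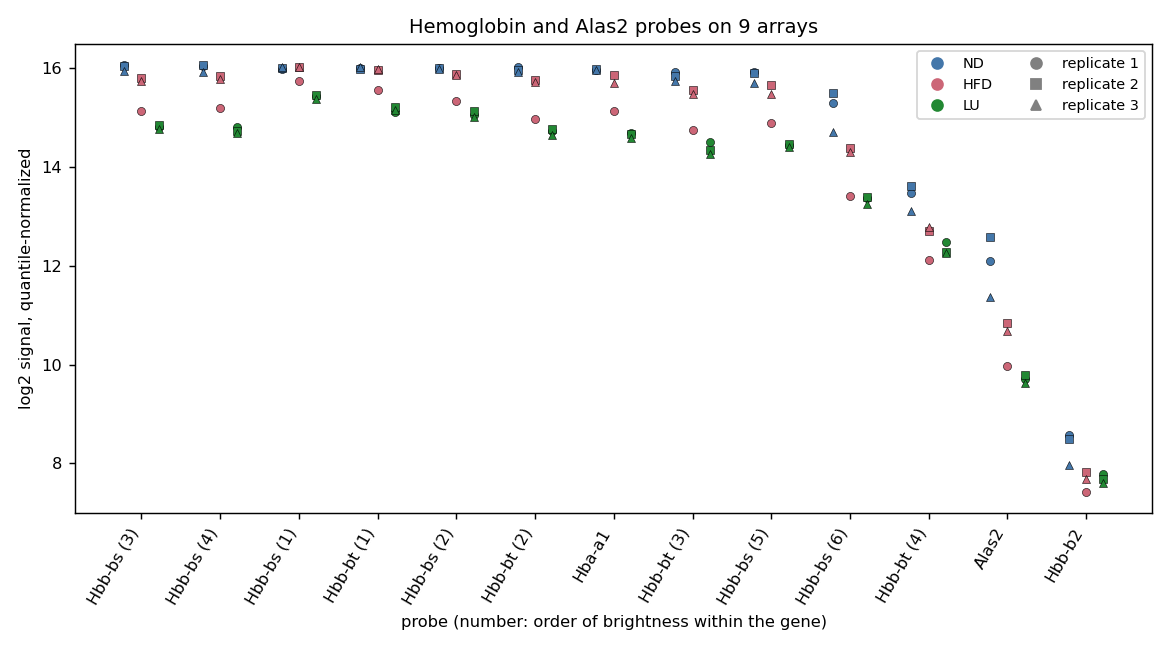
The log2 quantile-normalized signal (y axis) of each of the 13 hemoglobin and Alas2 probes (x axis, from the brightest to the dimmest in ND), with 1 point per array, colour for the diet and shape for the replicate number. In 9 of the 13 probes the 3 LU points lie below the 3 HFD points, which lie below the 3 ND points, and HFD replicate 1 is the lowest HFD point in all 13.

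The beta chain probes moved the same way, by amounts that differed with the probe. Of the 6 Hbb-bs probes, the dimmest, ILMN_2544056, had log2 signals of 15.31, 15.50 and 14.72 on ND, 13.43 (HFD replicate 1), 14.38 and 14.30 on HFD and 13.37, 13.40 and 13.25 on LU. Its 3 groups did not overlap, although HFD replicate 1 lay only just above the LU arrays. Its means were 15.18 ± 0.41, 14.04 ± 0.53 and 13.34 ± 0.08 (SD, n = 3), which made HFD 2.20-fold lower than ND and LU 1.62-fold lower than HFD. The Hbb-bs probe that was brightest by its mean over all arrays, ILMN_1244316, read 15.99, 16.01 and 16.03 on ND, 15.74, 16.02 and 16.02 on HFD and 15.44, 15.45 and 15.37 on LU. Here ND and HFD overlapped, with a difference of -0.08 on the log2 scale, while LU stood 1.42-fold below HFD. Over the 6 Hbb-bs probes, HFD minus ND ran from -1.14 to -0.08 with a median of -0.43, and LU minus HFD ran from -0.90 to -0.51 with a median of -0.72. All 6 were lower on HFD than on ND and lower on LU than on HFD, and they differed among themselves most in the size of the first step.

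The 4 Hbb-bt probes, which share 1 transcript record, showed the same order of groups and the same scatter among probes. In 3 of them LU was lower than HFD by 1.60- to 1.85-fold without overlap. The dimmest, ILMN_1235372, read 13.49, 13.62 and 13.12 on ND, 12.12, 12.71 and 12.79 on HFD and 12.49, 12.29 and 12.27 on LU. This probe separated HFD from ND, at 1.83-fold lower, but its LU arrays lay within the range of its HFD arrays, with means of 12.35 ± 0.12 and 12.54 ± 0.37 (SD, n = 3). Over the 4 probes, HFD minus ND ran from -0.87 to -0.17 and LU minus HFD from -0.89 to -0.19. Hbb-b2 was close to background throughout, at 8.57, 8.50 and 7.96 on ND, 7.43, 7.83 and 7.68 on HFD and 7.78, 7.69 and 7.61 on LU. Not well above background on any LU array, it was at least 1.46-fold lower on LU than on ND, a bound set by the mean of, on each LU array, the higher of the lowest detected signal and its own. Its LU and HFD arrays overlapped, and with only HFD replicate 2 detected among these 6 arrays no order can be read between them.

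Alas2 differed between the diets without overlap and away from the top of the scale. Its log2 signal was 12.10, 12.59 and 11.36 on ND, 9.97, 10.84 and 10.68 on HFD and 9.70, 9.78 and 9.64 on LU. No array of a lower group reached the lowest array of the group above, although HFD replicate 1 was close to the LU arrays. The means were 12.02 ± 0.62, 10.50 ± 0.46 and 9.71 ± 0.07 (SD, n = 3). HFD was 2.87-fold lower than ND, LU was 1.73-fold lower than HFD and LU was 4.96-fold lower than ND. Before normalization its signals were between 737 and 6092, unlike those of most globin probes on ND.

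Over the 13 probes, the HFD mean was below the ND mean in 13, the LU mean was below the HFD mean in 12 and the LU mean was below the ND mean in 13. HFD arrays lay below ND arrays without overlap in 11 of 13 probes, where 25.7% of all probes kept did. LU lay below HFD without overlap in 11 of 13 (22.8% of all probes), and LU lay below ND in 13 of 13 (23.2%). The full order of LU below HFD below ND held in 9 of 13, and in 1.61% of all probes. Since the genes were chosen for their levels on these arrays, these counts describe them and carry no test. The probes of a gene share its messages and are not separate observations of the diets. The 4 probes without the full order were the brightest Hbb-bs, the brightest and the dimmest Hbb-bt, and Hbb-b2.

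The size of the difference moved with how bright the probe was on ND. The 9 globin probes with a mean signal over 50000 on ND before normalization differed between HFD and ND by -0.58 to -0.08, with a median of -0.40. The 3 probes below them that were detected on all arrays, the dimmest Hbb-bs, the dimmest Hbb-bt and Alas2, differed by -1.52 to -0.87. For LU minus HFD the 9 bright probes ran from -0.93 to -0.51 and the 3 dimmer ones from -0.79 to -0.19, so that the bright probes had the smaller differences in the first step only. Before normalization the highest signal on any array was 67073 to 69609, and Hba-a1 read 65631, 66867 and 65017 on ND, 36258, 61558 and 52985 on HFD and 25501, 26772 and 22652 on LU. Signals over 60000 were held by 9, 9 and 7 of the 13 probes on the ND arrays, by 0, 6 and 2 on the HFD arrays and by none on the LU arrays. The files mark no spot as saturated, and a probe near the top of the scale has little room to show a higher level. The part of this in the smaller HFD minus ND values of the bright probes was not tested.

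**Figure D2:**
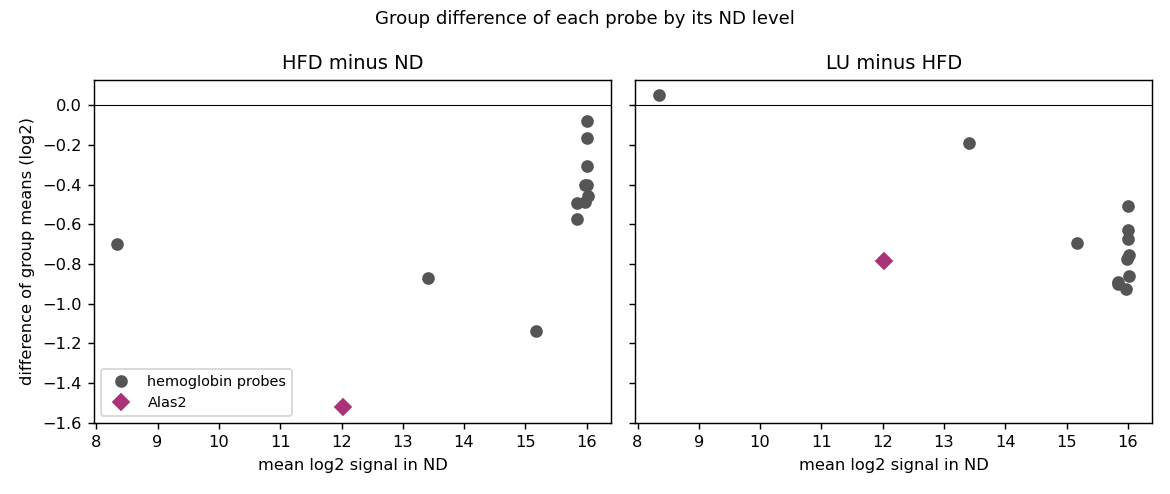
Difference of group means on the log2 scale (y axis) against the ND mean of the same probe (x axis), for HFD minus ND (left) and LU minus HFD (right), with circles for the 12 hemoglobin probes and a diamond for Alas2. On the left the probes near 16 on the x axis lie closest to 0, and Alas2 lies lowest at -1.52, whereas on the right the bright probes lie between -0.93 and -0.51.

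Read as part of the whole signal, the 12 hemoglobin probes summed to 1.52%, 1.46% and 1.36% of all signal before normalization on the ND arrays, 0.796%, 1.21% and 1.17% on the HFD arrays and 0.649%, 0.652% and 0.608% on the LU arrays. The group means were 1.45% ± 0.0816, 1.06% ± 0.228 and 0.636% ± 0.0246 (SD, n = 3), and the 3 groups did not overlap. This value needs no normalization between arrays, but the probes that fed it include those near the top of the scale. Of the 20 brightest probes of each array, 7, 7 and 5 were hemoglobin probes on ND, 0, 2 and 2 on HFD and none on LU.

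**Figure D3:**
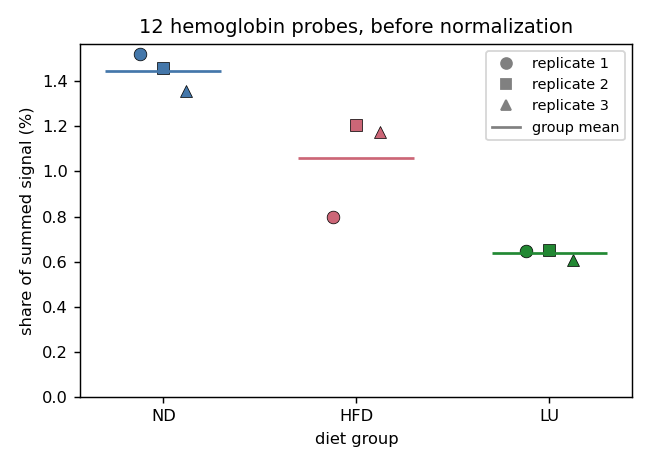
Share of the summed signal before normalization (y axis, percent) held by the 12 hemoglobin probes on each array, by diet, with the group mean as a line. The ND arrays lie at 1.36% to 1.52% and the LU arrays at 0.608% to 0.652%, and of the HFD arrays replicate 1, at 0.796%, lies nearer to LU than to the other HFD arrays.

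By the median over the 13 probes, the arrays of a group differed most on HFD, whereas Alas2 (SD 0.62 on ND, 0.46 on HFD) and Hbb-b2 (0.33 and 0.20) differed most on ND. The SD of the 13 probes over the 3 HFD arrays was 0.16 to 0.53, with a median of 0.37, whereas the median SD of all probes kept was 0.07 there and the 95th percentile was 0.17. Of the 13 probes, 12 were above that percentile. On ND the SD ran from 0.02 to 0.62 with a median of 0.08, and 4 of 13 probes were above the 95th percentile of 0.23. Those 4 were Alas2, Hbb-b2, the dimmest Hbb-bs and the dimmest Hbb-bt, the probes that were not near the top of the scale. On LU the SD was 0.04 to 0.12 with a median of 0.06, and none was above the 95th percentile of 0.12. For the 4 probes not near the top of the scale, the SD was larger on ND than on LU, also under median scaling and without normalization. For Alas2 it was 0.62 on ND and 0.07 on LU, 0.60 and 0.14 under median scaling and 0.60 and 0.16 without normalization. By the median of the globin probes, most of them near the top of the scale on ND, the group with the smaller spread depended on the scaling. The median SD of the 11 globin probes detected on all arrays was 0.062 on LU and 0.066 on ND, but 0.115 and 0.093 under median scaling and 0.128 and 0.054 without normalization between arrays. The SD of Alas2 ranked at the 99.9th percentile of all probes on ND, at the 99.8th on HFD and at the 70.0th on LU.

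**Figure D4:**
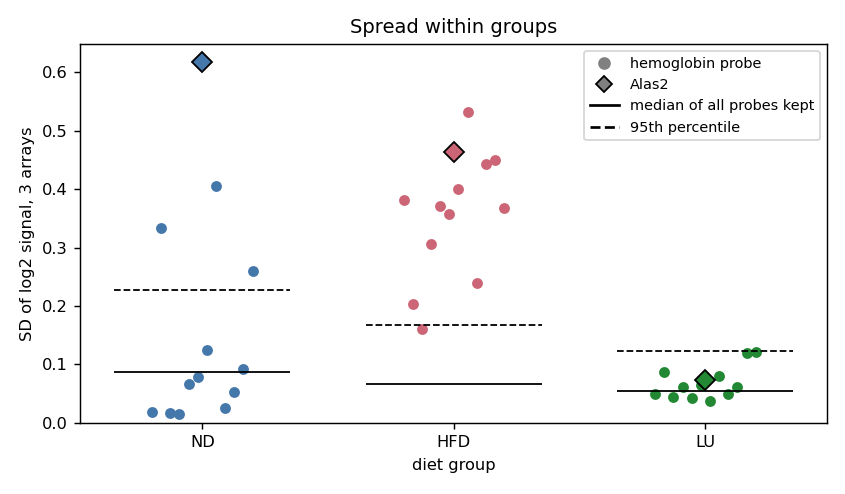
SD of the log2 signal over the 3 arrays of each diet (y axis) for the 12 hemoglobin probes (circles) and Alas2 (diamond), with the median SD of all 20558 probes kept as a solid line and their 95th percentile as a dashed line. On HFD 12 of 13 points lie above the dashed line, on ND 4 and on LU none.

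Most probes shared the same order of arrays within a group. HFD replicate 1 was the lowest HFD array in 13 of 13 probes. HFD replicate 2 was the highest in 11, tied with HFD replicate 3 in the brightest Hbb-bs probe. On ND, replicate 3 was the lowest in 11 of 13 probes, and on LU replicate 3 was the lowest in 12. Without HFD replicate 1, the median SD of the 11 globin probes detected on all arrays fell from 0.37 to 0.05 and that of Alas2 from 0.46 to 0.11. Leaving it out moved the median HFD minus ND difference of those globin probes from -0.46 to -0.23 and the median LU minus HFD difference from -0.75 to -1.002. For Alas2 the same step moved HFD minus ND from -1.52 to -1.26 and LU minus HFD from -0.79 to -1.05. Without ND replicate 3 the SD of Alas2 on ND was 0.34 in place of 0.62, and its HFD minus ND difference was -1.85. The HFD level of Alas2, and of the globins by their median, thus lay between ND and LU with or without these arrays. Single probes departed from this, namely Hbb-b2 with all arrays and the brightest Hbb-bs probe without HFD replicate 1.

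The globin probes rose and fell together from array to array, and by the median Alas2 followed them less closely. Between pairs of the 11 globin probes Pearson's r over the 9 arrays was 0.73 to 1.00, with a median of 0.98, and between Alas2 and each of them it was 0.80 to 0.99, with a median of 0.91. With each group centred on its own mean, which takes the diets out, r was 0.67 to 0.99 (median 0.95) among globin probes and 0.50 to 0.95 (median 0.67) between Alas2 and the globin probes. The highest values for Alas2, 0.99 and 0.95, were with the dimmest Hbb-bs probe, which was not near the top of the scale on ND. Most globin probes were near it there and had little room to differ between arrays. The part of this in the lower medians of Alas2 was not tested. These values describe 9 arrays that share their groups and, for the globins, their messages.

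Other genes of red cells and heme, in lists that were also put together with earlier results of these data known, were tested with limma in 1 fit over the 9 arrays, with Benjamini-Hochberg adjustment over all probes kept and a threshold of 0.05. A gene is said to rise or fall on HFD against ND, and on LU against HFD. Of the 8699 named genes, 52.9% passed for HFD against ND (25.2% higher, 27.7% lower), 37.9% for LU against HFD (19.7% higher, 18.2% lower) and 39.7% for LU against ND (21.1% higher, 18.6% lower). Slc4a1, the band 3 anion exchanger of the red cell membrane, followed Alas2 on HFD. Its log2 signal was 10.32, 10.55 and 9.40 on ND, 8.04, 8.91 and 8.92 on HFD and 8.28, 8.45 and 8.31 on LU. The ND arrays lay above all others, HFD replicate 1 was again the lowest HFD array, and the LU arrays lay within the range of the HFD arrays. Slc4a1 fell on HFD by 1.47 on the log2 scale (SE 0.26, limma adjusted p = 0.00082) and was lower on LU than on ND, at -1.74 (adjusted p = 0.00049). Its LU minus HFD difference of -0.27 did not pass (adjusted p = 0.48), with a 95% confidence interval of -0.85 to 0.30.

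Trim10, which encodes a protein of the erythroid maturation program, was at or under background on HFD and LU and at least 1.31-fold lower there than on ND (limma adjusted p = 0.00099 and 0.0018). Trim10 was detected on the 3 ND arrays alone and so passed the filter only through the group in which it was high. Car1, a carbonic anhydrase of red cells and some other tissues, fell on HFD by 0.58 (adjusted p = 9e-05) and had an LU minus ND difference of -0.44 (adjusted p = 0.0014). Cd59a, a complement regulator carried by red cells and by many other cells, was higher on HFD than on ND by 0.32 (adjusted p = 0.0016) and was by far the brightest of the list, at a mean of 14.45 on ND. Of the 7 red cell membrane and maturation genes measured, 4 fell and 1 rose on HFD, where 27.7% and 25.2% of all named genes did. Of the 4 that fell, Trim10 and Bpgm, an enzyme of red cell glycolysis, passed the filter only through ND, so the count of 4 is no support for a change of the list. The median difference of the list was -0.18 against -0.03 over all genes. Between LU and HFD none of the 7 passed limma (37.9% of all genes did), and none did at an unadjusted p under 0.05, by rank product or by the methods' t-test, with a median of 0.00. LU against ND gave 4 lower and 1 higher, with the same limit for Trim10 and Bpgm, where 18.6% and 21.1% of all genes were. Trim10 and Bpgm were detected on no HFD or LU array and could not show a step between these groups. From HFD to LU, 12 of 13 hemoglobin and Alas2 probes had a lower mean, which was not tested. That count of means cannot be set against the calls of this list, which rest on a threshold.

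Alad and Ppox, enzymes that follow Alas2 on the way to heme, did not keep its order over the 3 diets by their brightest probes. All cells use the enzymes of this path. The list counted here also holds genes that are no enzymes of the path, Clpx among them. Of 9 genes of heme synthesis measured, 4 fell and 0 rose on HFD (27.7% and 25.2% of all named genes), with a median of -0.27. On LU against HFD 3 rose and 0 fell (19.7% and 18.2%), with a median of 0.13. Alad, which joins the products of the Alas step into porphobilinogen, had means of 13.22 ± 0.06 on ND, 12.54 ± 0.07 on HFD and 13.07 ± 0.02 on LU (SD, n = 3). It fell on HFD by 0.68 (limma adjusted p = 1.4e-06) and was 0.53 higher on LU than on HFD (adjusted p = 6.3e-05). Ppox, the protoporphyrinogen oxidase, fell on HFD by 0.33 (adjusted p = 0.00096) and was 0.27 higher on LU than on HFD (adjusted p = 0.0058). With the mean of its probes in place of the brightest, Ppox differed by -0.18 (adjusted p = 0.022) and by 0.10, which did not pass (adjusted p = 0.20). Clpx, a mitochondrial chaperone that acts on the Alas enzymes, fell on HFD by 0.40 (adjusted p = 0.0003) and was 0.23 higher on LU than on HFD (adjusted p = 0.016), a call lost without HFD replicate 1, LU replicate 1 or LU replicate 3 and a value of 0.15 with the mean of its probes. By their brightest probes these 3 genes stood lowest on HFD, whereas Alas2 stood lowest on LU.

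Fech, which puts iron into the ring in the last step, was the exception among the called enzymes, with means of 8.56 ± 0.25, 8.28 ± 0.05 and 8.25 ± 0.11 on ND, HFD and LU (SD, n = 3). It fell on HFD by 0.28 (limma adjusted p = 0.044), a call lost in 5 of 6 fits that left out an array of the comparison, and its LU minus ND difference was -0.31 (adjusted p = 0.035), a call lost in 3 of 6. Against ND, LU had 1 heme synthesis gene higher, Tmem14c, and 1 lower, Fech. Urod, Uros and the mitochondrial carriers Slc25a37 and Slc25a38 passed in no comparison. Adipocyte genes mostly moved with the list by their calls, since 9 of 11 fell and 1, Lep, rose on HFD (27.7% and 25.2% of all named genes). On LU against HFD 6 of 11 rose and 0 fell (19.7% and 18.2%). Summed, the adipocyte genes overlapped between ND (17.74 to 17.81) and HFD (17.68 to 17.75), with LU at 17.81 to 17.83. The summed heme synthesis genes lay at 14.93 to 14.98 on ND, 14.66 to 14.72 on HFD and 14.91 to 14.95 on LU. The part of adipocyte content in the heme synthesis values was not tested.

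**Figure D5:**
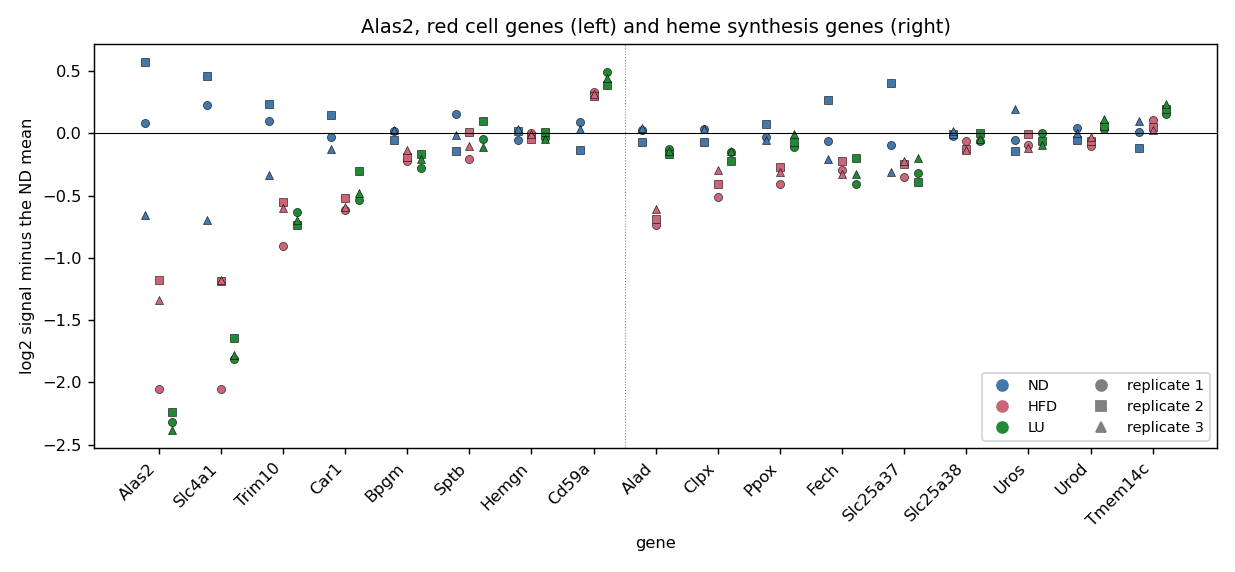
Log2 signal minus the ND mean of the gene (y axis) on each array for Alas2, the 7 measured red cell genes (left of the dotted line) and the 9 measured heme synthesis genes (right), with colour for the diet and shape for the replicate number. Slc4a1 follows Alas2 down on HFD, with HFD replicate 1 lowest in both, whereas Alad, Clpx and Ppox are lowest on HFD and higher on LU.

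Of the factors that drive erythroid genes, Gata1, Klf1 and Tal1 had no named probe here. Lmo2, a partner of GATA1 that endothelial and other blood cells also use, rose on HFD by 0.71 (limma adjusted p = 2.9e-05) and was -0.37 on LU against HFD (adjusted p = 0.0058), with means of 12.06, 12.77 and 12.40 on ND, HFD and LU. Ldb1, which bridges these factors, fell on HFD by 0.24 (adjusted p = 0.0085) and was 0.25 higher on LU than on HFD (adjusted p = 0.0086). Epor, the erythropoietin receptor, had differences of 0.01, 0.02 and 0.02 in the 3 comparisons and passed in none. None of these 3 had the order of the globins. Cygb, a globin of fibroblast-like cells and the only other globin measured, differed by 0.14 between HFD and ND (adjusted p = 0.21) and by 0.01 between LU and HFD.

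The genes that clear hemoglobin and break heme down moved mostly against the globins on HFD. Of 11 measured, 9 rose and 2 fell on HFD (25.2% and 27.7% of all named genes), with a median of 0.46. On LU against HFD 0 rose and 4 fell (19.7% and 18.2%), with a median of -0.18. Hpx, which encodes hemopexin, was detected on no ND array by probes ILMN_2744565 and ILMN_2830333, and on no LU array by the former. Where such a probe was the one read, Hpx passed the filter only through groups in which it was high and adds no support to these counts. Hmox1, the inducible heme oxygenase, had means of 9.76 ± 0.28, 10.78 ± 0.20 and 10.40 ± 0.21 on ND, HFD and LU (SD, n = 3) and rose on HFD by 1.02 (limma adjusted p = 9.4e-05). Hp, the plasma protein haptoglobin that binds free hemoglobin and is also made by fat, rose on HFD by 0.77 (adjusted p = 1.2e-06), and its LU minus HFD difference was -0.18 (adjusted p = 0.0505). With the mean of the Hp probes these values were 1.22 and -0.50 (adjusted p = 0.0013 for the latter), whereas under median scaling the latter was -0.099. The LU minus HFD difference of Hp passed under 5 of the alternatives. Cd163, the macrophage receptor for hemoglobin bound to haptoglobin, had the order of the globins, with means of 11.60 ± 0.15, 11.06 ± 0.19 and 10.69 ± 0.06. It fell on HFD by 0.54 (adjusted p = 0.00061) and by 0.37 more on LU (adjusted p = 0.011, and 0.051 without LU replicate 2). Flvcr2, a transporter of the family of the heme exporter Flvcr1, fell on HFD by 0.96 (adjusted p = 1.5e-06), while Flvcr1 rose by 0.71 (adjusted p = 3.7e-06).

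Macrophage genes moved beside this list, since 7 of 9 rose and 1, Cd163, fell on HFD (25.2% and 27.7% of all named genes). On LU against HFD all 9 fell (18.2%). Adgre1, the F4/80 antigen, had means of 10.78, 12.44 and 11.64 on ND, HFD and LU. On the log2 scale, the 9 genes summed to between 14.64 and 14.78 on ND, 15.56 and 15.69 on HFD, and 15.04 and 15.24 on LU. The part of macrophage content in the clearance values was not tested. Of 12 iron genes, 3 rose and 4 fell on HFD, near the shares of all named genes (25.2% and 27.7%). On LU against HFD 3 rose and 3 fell (19.7% and 18.2% of all named genes). Ncoa4, which carries ferritin to its breakdown in red cell precursors and other cells, had the order of the globins, at 10.55 ± 0.33, 10.17 ± 0.12 and 9.87 ± 0.05 (SD, n = 3), with HFD minus ND at -0.38 (limma adjusted p = 0.029, lost without ND replicate 2, HFD replicate 1 or HFD replicate 3) and LU minus HFD at -0.30 (adjusted p = 0.092, and 0.028 with the mean of its probes). Tfrc, the transferrin receptor, which red cell precursors carry at high level, was 0.28 higher on LU than on HFD (adjusted p = 0.037, lost in 4 of 6 fits without an array).

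Genes of the other cells that blood or vessels bring moved in both directions. Of 4 neutrophil genes, 2 rose and 0 fell on HFD (25.2% and 27.7% of all named genes). None passed limma on LU against HFD (37.9%). There 1 passed at an unadjusted p under 0.05, 1 by rank product and 0 by the methods' t-test. S100a8, an abundant neutrophil message, had means of 9.74 ± 0.57, 11.44 ± 0.31 and 10.89 ± 0.08 (SD, n = 3) and rose on HFD by 1.69 (limma adjusted p = 6.1e-05). Of 6 platelet genes, 2 rose and 2 fell on HFD (25.2% and 27.7% of all named genes). On LU against HFD 1 rose and 1 fell (19.7% and 18.2%). Pf4, a chemokine of platelet granules that macrophages also carry, rose on HFD by 0.38 (adjusted p = 0.0018) and was -0.69 on LU against HFD (adjusted p = 8.1e-05), whereas Ppbp, a further platelet chemokine, fell on HFD by 0.43 (adjusted p = 0.0084) and was 0.26 higher on LU than on HFD (adjusted p = 0.10). The summed signal of the platelet genes was 12.22 to 12.39 on ND, 12.52 to 12.58 on HFD and 12.01 to 12.12 on LU.

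Of 10 endothelial genes, 4 fell and 0 rose on HFD (27.7% and 25.2% of all named genes). On LU against HFD 1 rose and 0 fell (19.7% and 18.2%). Pecam1, the endothelial adhesion molecule, differed by -0.02 and -0.05 in these comparisons (limma adjusted p = 0.79 and 0.50), with 95% confidence intervals of -0.14 to 0.10 and -0.17 to 0.07. Summed, the endothelial genes lay between 16.10 and 16.20 on ND, 15.81 and 16.01 on HFD, and 16.02 and 16.04 on LU. The lowest LU array was only just above the highest HFD array, and the median LU minus HFD difference of the list was -0.009. How much blood each piece of tissue held was not measured, and blood content and diet cannot be told apart for the globins and Alas2.

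Among 8453 named genes, those with the pattern over the 9 arrays most like the mean of the 11 globin probes were Hs3st1, Hnrnpll and Spock2 (Pearson's r = 0.98 each), Upk1b, Cd209d and Rtkn2 (0.97 each) and Kcnab1 and Cd209b (0.96 each). Most like Alas2 were Sypl and Slc4a1 (0.98 each), Cebpg, Herpud1, Shprh and Tpst1 (0.97 each) and Retnla and Ifitm6 (0.96 each). Many genes that differ between the diets reach such values over 3 groups. With the groups centred on their means, Alas2 was followed most closely by Hexim2 (0.99), Cytip, Fam220a and Slc4a1 (0.98 each), Car2 (0.97) and Trim10, Id1 and Def6 (0.96 each). Slc4a1, the carbonic anhydrase Car2 and Trim10 are carried by red cells, though Car2 not by them alone. Car2, at 7.87 to 8.52, lay near background, and Trim10 was detected on ND alone. Of these 8 centred genes, 5 stayed under the neqc background correction and 3 under median scaling, so the list depends on the scaling. For the globin mean the centred list was Atg3, Rasip1, Fam216a, Psmd9, Ctbp2, Ddt, Hgd and Inka1 (0.92 to 0.97), of which 1 of 8 stayed under median scaling.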

How the data were processed

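RNA of whole epididymal WAT was hybridized to 9 Illumina MouseWG-6 v2 BeadChip arrays. The deposited tables of the authors hold the intensity of each of 45281 probes, not normalized, with its detection p-value, and a quantile-normalized log2 table of 17128 probes, used as an alternative. How the probes of that table were chosen is not given in the sources used here. Gene names were known only for 14264 of its probes (1 name each). More of the named genes than of all probes passed (52.9% against 37.3% for HFD against ND), so each gene list is read against the named genes.

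Intensities were quantile-normalized and log2-transformed in R 4.3.3 without background subtraction, and only probes that 3 or more arrays detected (p under 0.05) were used. Groups came from the labels, with no batch named. Genes of the lists were read from their brightest probe and tested with limma 3.58.1, in a fit tested on simulated data. The hemoglobin and Alas2 probes and all lists were chosen with earlier results of these data known. Named genes were, per list, up to 4 with the largest difference past the threshold and preset defining genes, with the 8 genes most like the globin mean and Alas2. Bpgm, Flvcr1, Tmem14c, Urod, Uros, Slc25a37, Slc25a38, Epor and Cygb were named after their values were seen. The comparisons share groups. The number of arrays limits the precision. Alternatives were neqc, median scaling, no normalization, stricter and no probe filters, rank product with 100 permutations, the methods' t-test, a replicate block, 2-group fits and leaving out each array.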

Additional observations from a re-analysis of the deposited data

How the results depend on the processing

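The median globin and Alas2 differences kept their direction under all alternatives run. Without 1 array, the globin medians ran from -0.57 to -0.23 for HFD against ND, -1.002 to -0.64 for LU against HFD and -1.29 to -1.23 for LU against ND, and Alas2 from -1.85 to -1.24, -1.05 to -0.62 and -2.64 to -2.02. For Hbb-b2 the LU minus HFD difference of 0.05 turned to -0.067 without normalization and -0.059 without HFD replicate 1, and for the brightest Hbb-bs probe the HFD minus ND difference of -0.08 turned to 0.011 without HFD replicate 1 (lowest without 1 array -0.13). The LU SD of the globins rose from 0.06 to 0.11 under median scaling and 0.13 without normalization, and that of Alas2 from 0.07 to 0.14 and 0.16. Without 1 array the globin SDs were 0.016 to 0.086 on ND, 0.046 to 0.47 on HFD and 0.029 to 0.060 on LU, and those of Alas2 0.34 to 0.87, 0.11 to 0.61 and 0.044 to 0.10.

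Heme synthesis, red cell and erythroid genes called numbered 11 for HFD against ND, 5 for LU against HFD and 8 for LU against ND. Rank product, which the methods name for the arrays, gave 3, 1 and 2. The methods' t-test after adjustment gave 6, 3 and 1, and leaving out 1 array gave 9 to 11, 4 to 5 and 5 to 9 (5 without LU replicate 1). With only probes detected on all 9 arrays the LU against ND count was 5. Under the methods' t-test Slc4a1 and Trim10 did not pass for HFD or LU against ND (adjusted p = 0.060 to 0.10). By rank product, Lmo2, Ldb1, Ppox, Clpx and Cd163 did not pass for HFD against ND or for LU against HFD. Genes of the other lists called numbered 45, 27 and 38. Rank product gave 11, 10 and 13, the t-test 27 for HFD against ND and 18 for LU against ND, and leaving out 1 array 41 to 46, 20 to 33 and 31 to 38. The cause of these differences was not tested. A replicate block gave 11, 5 and 8, and 45, 27 and 37; same-numbered arrays correlated at -0.0992 to 0.0872, so the numbers do not pair the arrays. Among genes most like Alas2, 4 of 8 stayed under median scaling. Depth limits Hbb-b2 and Trim10, which lie near background, and the top of the scale limits the bright globin probes.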
